A study of Homo sapiens with 6 samples.

Results

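The kinetochore and spindle checkpoint genes are 48 genes of the centromere, the kinetochore and the mitotic checkpoint. They were taken by symbol from a list of these structures, drawn up with earlier results of these data known, and the rule itself uses no measured value. All 48 were found by Ensembl ID among the 58825 genes of the count table, and all 48 passed the filter on low counts that left 19528 genes to test. The RNA came from HGC-27, a human gastric cancer cell line, and was read in 6 libraries to find genes whose level differs when GC0643 is forced. The 3 libraries of the first group came from HGC-27 cells with GC0643 overexpression, made stable by retroviral infection and puromycin selection. The 3 libraries of the other group came from HGC-27 vector control cells. GC0643 is a predicted gene placed in an intron of FAM163B, with a sequence that the reference genome lacks, and its own counts were not analysed here, so they did not check the labels. The sources do not say whether a line was a clone or a pool, nor whether replicates were separate cultures, so p-values measure only the spread between these libraries, which may be technical.

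The kinetochore is the protein structure that ties a chromosome to the spindle. Chromatin marked by the histone variant CENP-A carries an inner layer, the constitutive centromere-associated network (CCAN), on which the outer KNL1, MIS12 and NDC80 complexes are built and grip microtubules. Kinetochores that lack a proper attachment hold back anaphase through the spindle checkpoint, and the chromosomal passenger complex releases wrong attachments. Many of these genes are transcribed late in the cell cycle, so the level of their RNA in a dividing culture depends on how many cells are in that phase. In bulk RNA, fewer cells of a kind and less RNA per cell cannot be told apart.

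The promoters of these genes are shown because genes of the late cell cycle are known for a few short motifs near the start site. The motifs are the cell cycle homology region (CHR), with the letters TTTGAA or TTCGAA, bound by the DREAM complex, and CCAAT, bound by NF-Y. RefSeq promoters on GRCh38.p14, from 250 bases before to 50 bases after the start, were matched for 39 of the 48 genes. CENPH, CENPL, CENPM, KNL1, BUB3, TTK, KNTC1, MIS18A and BIRC5 were not matched. For the 6 matched genes with several starts the first listed was used. Each line below holds the bases from 80 before to 30 after the start, 5′ to 3′, with CHR and CCAAT matches of either strand in capitals (TTCAAA and ATTGG are the reverse forms, and TTCGAA is its own).
NUF2, chr1:163321874-163321983, plus strand: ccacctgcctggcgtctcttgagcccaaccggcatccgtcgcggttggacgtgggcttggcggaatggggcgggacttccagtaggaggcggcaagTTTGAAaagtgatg
NDC80, chr18:2571477-2571586, plus strand: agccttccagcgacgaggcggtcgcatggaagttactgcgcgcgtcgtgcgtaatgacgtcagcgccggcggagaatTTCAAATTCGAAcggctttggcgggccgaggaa
BUB1, chr2:110678034-110678143, minus strand: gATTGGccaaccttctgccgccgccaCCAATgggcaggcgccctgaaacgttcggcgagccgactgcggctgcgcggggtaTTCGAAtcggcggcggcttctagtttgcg
MAD2L1, chr4:120066819-120066928, minus strand: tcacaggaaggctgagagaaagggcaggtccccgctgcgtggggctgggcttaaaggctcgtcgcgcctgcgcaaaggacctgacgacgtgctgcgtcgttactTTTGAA
CDCA8, chr1:37692436-37692545, plus strand: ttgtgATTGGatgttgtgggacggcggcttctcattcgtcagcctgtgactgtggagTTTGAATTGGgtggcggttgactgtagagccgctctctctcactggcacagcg
SPC24, chr19:11155753-11155862, minus strand: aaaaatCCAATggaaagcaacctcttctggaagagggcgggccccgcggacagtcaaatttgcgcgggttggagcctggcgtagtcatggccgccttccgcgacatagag
CENPE, chr4:103198314-103198423, minus strand: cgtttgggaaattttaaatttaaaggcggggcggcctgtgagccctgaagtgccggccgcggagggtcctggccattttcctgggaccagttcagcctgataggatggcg

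NUF2, NDC80, BUB1 and MAD2L1 stand for promoters with a CHR close to the start, and SPC24 and CENPE for promoters with none. The NDC80 promoter held TTCAAA directly followed by TTCGAA. In the CDCA8 promoter the CHR shared a base with an ATTGG. A CHR on either strand was present in 22 of the 39 promoters (56.4%), against 16.6% of all 27305 promoters of the same length. Within 50 bases of the start it was present in 18 (46.2%), against 5.05% of all promoters. CCAAT was present in 26 (66.7%, against 35.7%), CHR together with CCAAT in 16 (41%, against 6.58%) and the E2F-type letters TTCCCGCC in 5 (12.8%, against 3.18%). These matches describe the letters in the window and are no measure of binding.

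The coding sequences of 3 members are shown because base composition went with the difference between the groups, as described later. Each line holds the first 60 coding bases of the canonical GENCODE 44 transcript, with G and C in capitals.
NUF2: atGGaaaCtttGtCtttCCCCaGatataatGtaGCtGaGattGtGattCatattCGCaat
TTK: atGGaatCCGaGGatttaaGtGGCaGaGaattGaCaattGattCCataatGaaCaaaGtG
SPC24: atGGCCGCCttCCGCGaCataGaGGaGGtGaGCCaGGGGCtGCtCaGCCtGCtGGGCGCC
NUF2 (chr1:163266576-163355764) had 21 G or C among these 60 bases and TTK (chr6:80003887-80042527) had 22, against 42 in SPC24 (chr19:11131520-11155807). Over the whole coding sequence the G and C content (GC content) was 37.2% in NUF2 and 36.9% in TTK, but 61.6% in SPC24. NUF2 and TTK were higher with GC0643 and SPC24 lower, on the values given below. The first 60 bases do not stand for every gene: CENPE, also higher, had 40 G or C there, and MAD1L1, also lower, had 27. The relation described later was taken over whole canonical transcripts.

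Total counts were 20376722 to 21629573 in the GC0643 libraries and 20489033 to 24069166 in the vector libraries. The 48 genes took 0.234%, 0.244% and 0.261% of the counts in GC0643 replicates 1 to 3, against 0.217%, 0.243% and 0.191% in vector replicates 1 to 3. The mesenchymal marker VIM stood between 3061 and 3371 CPM (counts scaled to a common total by TMM) in all 6 libraries. Of the other mesenchymal markers, ZEB1 and FN1 had log2 fold changes of 0.40 and 0.50 (unadjusted p = 0.0152 and 0.0146 in edgeR, adjusted p = 0.260 for both), and CDH2 had 32 counts in all and was not tested. The epithelial markers EPCAM, CDH1, KRT18 and KRT19 had 37, 27, 4 and 1 counts over the 6 libraries together. KRT8 was at 3.87 to 7.84 CPM. None of 7 markers of differentiated stomach passed the filter, so these markers gave no sign of the gastric origin in the label. The lymphocyte, endothelial and erythroid markers CD3E, MS4A1, PECAM1 and HBB had 0 counts.

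Scaled to the length of the canonical transcript, the level of the 48 genes spanned a 61.2-fold range. AURKB, the kinase of the chromosomal passenger complex, was highest at 98.2 CPM per kb over the 6 libraries. BIRC5 (survivin, of the same complex) followed at 74.2 and PMF1, a subunit of the MIS12 complex, at 55.0 CPM per kb. CENPC, NSL1 and CENPE were lowest at 1.60, 2.16 and 2.88 CPM per kb. The canonical transcript of NSL1 has 13115 bases, of which 843 are coding, so its place depends on the transcript chosen. In this order, 45 of the 47 neighboring pairs had ranges over the libraries that overlapped, so most neighbors did not differ beyond their spread. Only AURKB with BIRC5 and CENPM with CENPT had ranges that did not meet. CENPQ was the only member under 10 CPM on average.

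**Figure D1:**
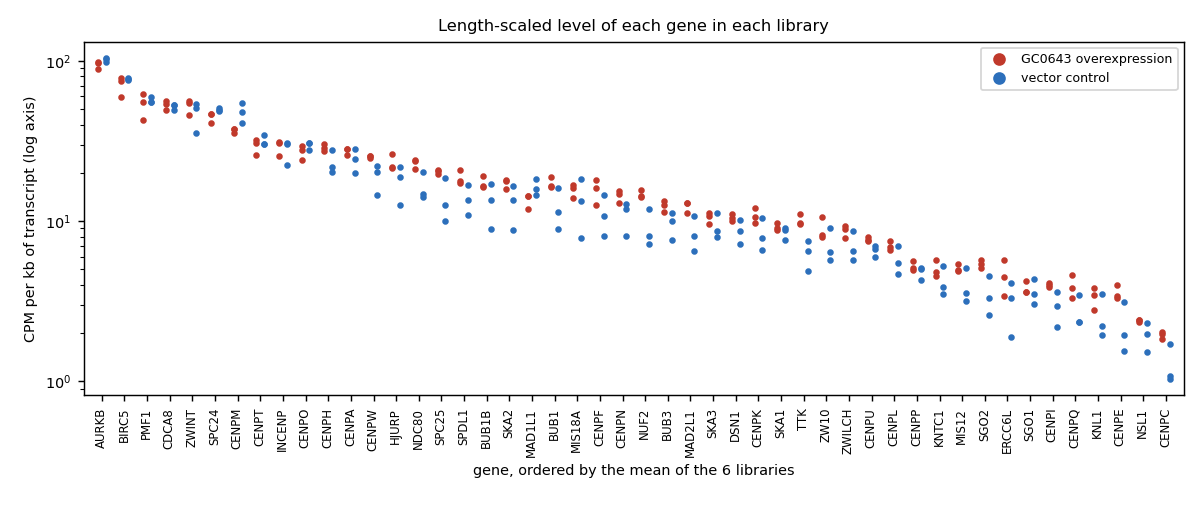
Level of each of the 48 genes in CPM per kb of canonical transcript, on a log axis, ordered by the mean of the 6 libraries. Each red point is a GC0643 overexpression library and each blue point a vector control library. AURKB stands at the top with a mean of 98.2 and CENPC at the bottom with 1.60 CPM per kb.

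The comparison of GC0643 overexpression with vector control asked which members differ in RNA level. With GC0643, 40 of the 48 genes were on the positive side in log2 fold change and 8 on the negative side. The median was 0.32 and the range -0.38 to 0.70, against a median of 0.02 over all genes tested. None passed an adjusted p under 0.05 in edgeR's quasi-likelihood test, as was true of 0% of all genes, whose smallest adjusted p was 0.177. At an unadjusted p under 0.05, 20 members were higher with GC0643, against 13.1% of all genes tested, and 1 was lower (CENPM), against 5.26%. With a fold over 1.5 added, 5 members were higher (NUF2, TTK, CENPE, SGO2 and CENPC), against 1.6% of all genes. None was lower, beside 170 of the 19528 genes. No member passed the adjusted p by the likelihood ratio test, DESeq2 or limma voom, which called 16, 11 and 0 genes of the whole table.

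The groups did not overlap for 19 members. In 16 of them all GC0643 libraries were above all vector libraries, against 11.8% of all genes tested. In 3 of them (CENPM, SPC24 and MAD1L1) all GC0643 libraries were below, against 10.5%. For the other 29 members the groups overlapped. Leaving out vector replicate 2 gave 29 members higher and 1 lower (CENPM) at an adjusted p under 0.05, against 14.7% and 4.36% of the genes tested then. Leaving out vector replicate 3 instead gave 10 members higher at an unadjusted p under 0.05, against 7.71% of all genes, and none at a fold over 1.5.

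**Figure D2:**
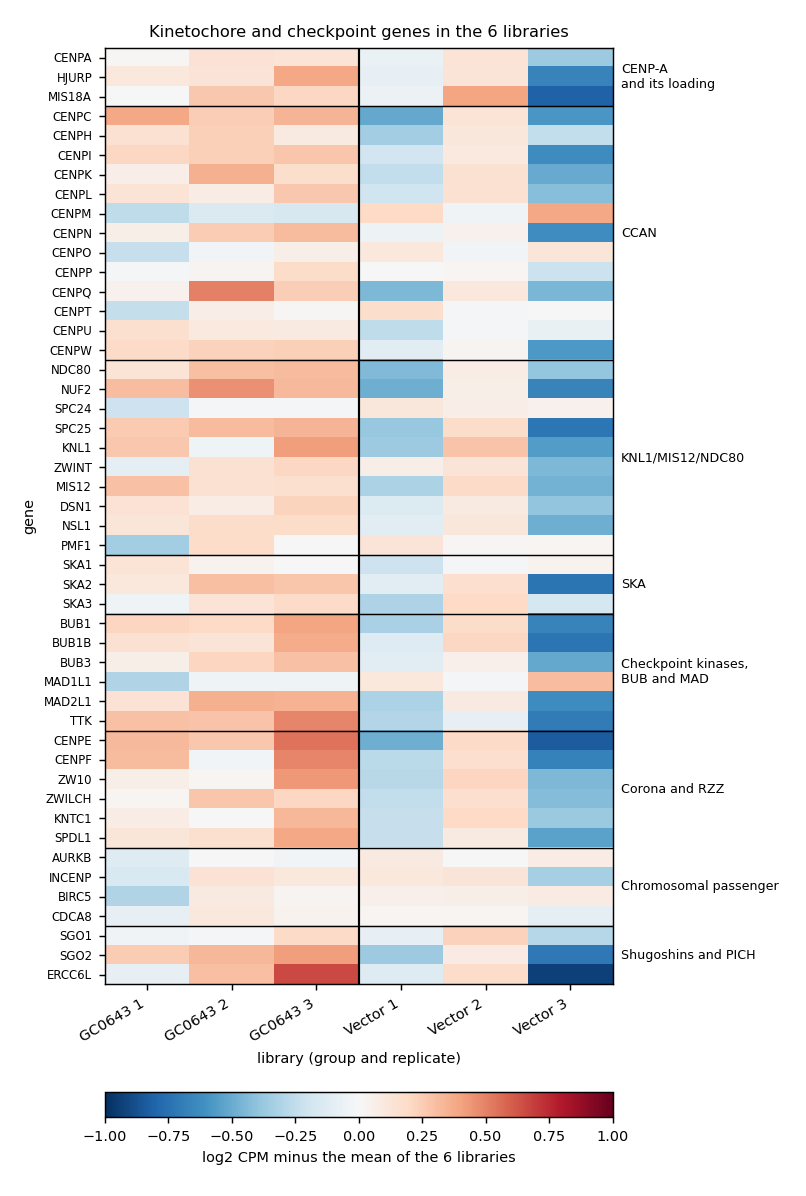
Log2 CPM of each of the 48 genes (rows, by subcomplex) in each library (columns, GC0643 overexpression left, vector control right), minus the gene's mean over the 6 libraries; red is above and blue below that mean. Vector replicates 1 and 3 are blue for most genes and vector replicate 2 is pale red for most, while CENPM, SPC24 and MAD1L1 are red in vector replicates 1 and 3.

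In the outer kinetochore, the NDC80 complex (NDC80, NUF2, SPC24 and SPC25) is the main coupler of kinetochores to microtubules. NUF2 was at 27.6, 30.7 and 28.0 CPM in the GC0643 libraries, against 15.9, 23.2 and 14.1 CPM in the vector libraries. All GC0643 libraries were above all vector libraries, and vector replicate 2 was the nearest. The log2 fold change was 0.70 ± 0.18 (SE, adjusted p = 0.260), the highest of the 48. Its partner NDC80 was at 44.9, 50.4 and 51.0 CPM in GC0643 cells, against 30.1, 43.0 and 31.3 CPM in vector cells. These groups did not meet either, and the log2 fold change was 0.49 ± 0.15 (SE, adjusted p = 0.260). SPC25, at the opposite end of the complex, had a log2 fold change of 0.57 with groups that did not overlap.

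SPC24, the direct partner of SPC25, did not share this pattern. It was at 93.3, 107 and 107 CPM in GC0643 cells, against 117, 113 and 110 CPM in vector cells. The groups did not overlap, yet the gap was narrow, and the log2 fold change was -0.15 ± 0.12 (SE, adjusted p = 0.461). Of the 4 subunits of this complex, 3 thus had log2 fold changes between 0.49 and 0.70 and SPC24 a small negative one.

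The MIS12 complex (MIS12, DSN1, NSL1 and PMF1) joins the NDC80 complex to the inner kinetochore. NSL1 was at 30.5, 31.8 and 31.8 CPM in GC0643 cells, against 26.0, 30.2 and 19.96 CPM in vector cells, without overlap, with a fitted log2 difference of 0.31 ± 0.16 (SE, adjusted p = 0.288). PMF1 was at 45.8, 66.4 and 58.7 CPM, against 63.9, 58.7 and 59.3 CPM. The PMF1 groups overlapped, with GC0643 replicate 1 lowest of all, with a fitted log2 difference of -0.09 ± 0.14 (SE, adjusted p = 0.722). On the canonical transcript of PMF1, 53.7% of the bases also lie in exons of the read-through gene PMF1-BGLAP on the same strand, so its counts are uncertain. KNL1, the scaffold for BUB proteins, and ZWINT, its partner, had log2 fold changes of 0.40 and 0.16, and MIS12 and DSN1 of 0.37 and 0.28, all with overlapping groups. Over the 10 genes of the KNL1, MIS12 and NDC80 complexes, 8 had positive log2 fold changes, the median was 0.34, and 3 were higher at an unadjusted p under 0.05, against 13.1% of all genes.

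The spindle checkpoint genes of the kinase, BUB and MAD group had a median log2 fold change of 0.45, with 5 of 6 positive. TTK (MPS1), the kinase that starts the checkpoint signal, was at 28.8, 28.6 and 32.9 CPM in GC0643 cells, against 19.2, 22.1 and 14.4 CPM in vector cells. Every GC0643 library was above every vector library, and the log2 fold change was 0.70 ± 0.16 (SE, adjusted p = 0.260). MAD2L1 encodes MAD2, the subunit of the checkpoint complex that binds CDC20. It was at 58.3, 67.5 and 67.2 CPM in GC0643 cells, against 42.4, 56.2 and 34.0 CPM in vector cells, with a fitted log2 difference of 0.54 ± 0.16 (SE, adjusted p = 0.260). Vector replicate 2 was again the closest to the GC0643 libraries.

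BUB1, a checkpoint kinase at the inner centromere and kinetochore, and BUB3, the adaptor that brings BUB proteins to KNL1, had log2 fold changes of 0.50 and 0.37 with groups that did not overlap. BUB1B (BUBR1), a subunit of the mitotic checkpoint complex, was at 0.39 with overlapping groups. MAD1L1 (MAD1), which places MAD2 at kinetochores, had the opposite sign. It was at 32.2, 38.5 and 38.5 CPM in GC0643 cells, against 42.6, 39.2 and 49.1 CPM in vector cells, without overlap. The fitted log2 difference was -0.26 ± 0.14 (SE, adjusted p = 0.30). Nearly all of its canonical transcript (99.7%) is shared on the same strand with a second annotated gene, ENSG00000286192, which has counts of its own and a log2 fold change of -0.15. How reads in shared exons were counted is not stated for these libraries, and for its tumor libraries the study gives an option that counts a read for every gene it overlaps, so the MAD1L1 level is uncertain.

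The fibrous corona and the ROD-ZW10-Zwilch (RZZ) complex extend the outer kinetochore before attachment. All 6 genes of this group had positive log2 fold changes, with a median of 0.38. After the correction for GC content described later, 4 were positive and the median was 0.0955. CENPE, a kinesin that carries chromosomes toward the spindle equator, was at 29.2, 28.1 and 34.0 CPM in GC0643 cells, against 16.6, 26.6 and 13.1 CPM in vector cells. The groups did not overlap, although vector replicate 2 lay close under the GC0643 libraries. The log2 fold change was 0.70 ± 0.21 (SE, adjusted p = 0.260) with all libraries, 1.04 without vector replicate 2 and 0.48 without vector replicate 3. SPDL1 (Spindly), the adaptor that brings dynein to kinetochores, was at 43.8, 44.9 and 52.5 CPM, against 34.2, 42.7 and 27.7 CPM. These groups did not overlap, and the log2 fold change was 0.43 ± 0.16 (SE, adjusted p = 0.260).

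KNTC1 (ROD), the largest subunit of RZZ, had the lowest value of this group. It was at 33.4, 31.7 and 39.8 CPM in GC0643 cells, against 26.9, 36.3 and 24.4 CPM in vector cells, with a fitted log2 difference of 0.26 ± 0.16 (SE, adjusted p = 0.364). Here vector replicate 2 exceeded GC0643 replicates 1 and 2. ZW10 and ZWILCH, the other RZZ subunits, were at 0.33 and 0.32, and the corona protein CENPF at 0.49, each with overlapping groups.

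Among the 13 CCAN genes, 10 had positive log2 fold changes, with a median of 0.31. CENPC, which binds CENP-A nucleosomes and the MIS12 complex, was at 13.8, 12.5 and 13.4 CPM in GC0643 cells, against 7.39, 11.6 and 7.03 CPM in vector cells. The groups did not overlap, and the log2 fold change was 0.61 ± 0.19 (SE, adjusted p = 0.260). CENPQ, of the CENP-O, CENP-P, CENP-Q and CENP-U complex, was at 5.79, 7.98 and 6.66 CPM, against 4.09, 6.02 and 4.08 CPM. Vector replicate 2 exceeded GC0643 replicate 1, and the log2 fold change was 0.53 ± 0.21 (SE, adjusted p = 0.260).

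CENPM, a small GTPase-like subunit of the CENP-H, CENP-I, CENP-K and CENP-M complex, had the lowest log2 fold change of all 48 genes. It was at 33.0, 35.4 and 35.1 CPM in GC0643 cells, against 45.1, 38.3 and 51.4 CPM in vector cells. The groups did not overlap, with vector replicate 2 nearest, and the log2 fold change was -0.38 ± 0.14 (SE, adjusted p = 0.260). Its partners CENPH, CENPI and CENPK were at 0.31, 0.45 and 0.38, so members of a single complex differed in sign. Of the nucleosome reader CENPN and its partner CENPL, the log2 fold changes were 0.40 and 0.30. The histone-fold pair CENPT and CENPW was at -0.10 ± 0.13 (SE, overlapping groups) and 0.42. After the correction for GC content described later, the pair was at 0.08 and 0.10. CENPU, CENPP and CENPO were at 0.23, 0.13 and -0.14. CENPP and CENPO share 44.9% and 36.2% of their canonical transcripts with IPPK and ADCY3 on the opposite strand, and CENPU shares 20.9% with PRIMPOL. Whether counting used the strand was not stated, so these 3 values are uncertain.

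CENP-A and its loading factors had log2 fold changes between 0.18 and 0.39. HJURP, the chaperone that deposits CENP-A, was at 67.6, 68.6 and 82.1 CPM in GC0643 cells, against 59.3, 68.4 and 39.5 CPM in vector cells. Vector replicate 2 lay between GC0643 replicates 1 and 2, and the log2 fold change was 0.39 ± 0.17 (SE, adjusted p = 0.267). CENPA itself was at 35.9, 39.2 and 39.2 CPM, against 33.9, 39.1 and 27.7 CPM, at 0.18 ± 0.15 (SE, adjusted p = 0.461). MIS18A, of the complex that licenses centromeres for loading, was at 0.25, or -0.03 without vector replicate 3.

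The SKA complex tracks the ends of microtubules together with NDC80. SKA2 was at 44.2, 50.9 and 49.8 CPM in GC0643 cells, against 38.0, 46.3 and 24.7 CPM in vector cells, with a fitted log2 difference of 0.41 ± 0.18 (SE, adjusted p = 0.267). SKA3 was at 27.4, 30.96 and 32.2 CPM, against 22.7, 32.4 and 24.9 CPM, and SKA1 at 27.6, 25.8 and 25.2 CPM, against 21.8, 24.9 and 25.8 CPM. All of these groups overlapped, and SKA3 and SKA1 had log2 fold changes of 0.18 ± 0.15 and 0.12 ± 0.14 (SE).

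The 3 genes of shugoshins and PICH had the highest median of the subcomplexes, 0.55. SGO2, a protector of centromeric cohesion, was at 22.8, 24.02 and 25.5 CPM in GC0643 cells, against 14.8, 20.2 and 11.6 CPM in vector cells. The groups did not overlap, and the log2 fold change was 0.63 ± 0.18 (SE, adjusted p = 0.260). ERCC6L (PICH), a translocase found on ultrafine anaphase bridges, had the widest spread, with 14.4, 18.8 and 24.1 CPM in GC0643 cells, against 13.9, 17.3 and 7.94 CPM in vector cells. Vector replicate 2 exceeded GC0643 replicate 1, and the log2 fold change was 0.55 ± 0.24 (SE, adjusted p = 0.266). SGO1, the other shugoshin, was at 11.1, 11.1 and 12.9 CPM, against 10.7, 13.2 and 9.27 CPM, with vector replicate 2 highest of all. The fitted log2 difference was 0.08 ± 0.17 (SE, adjusted p = 0.794), although 19.3% of its canonical transcript lies in the antisense gene SGO1-AS1.

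The chromosomal passenger complex had the lowest median log2 fold change of the subcomplexes, -0.03, or 0.06 after the correction for GC content described later, and no gene of it had an unadjusted p under 0.05. AURKB was at 111, 121 and 120 CPM in GC0643 cells, against 130, 121 and 128 CPM in vector cells. BIRC5, which binds the complex to centromeric chromatin, was at 154, 202 and 193 CPM, against 196, 198 and 201 CPM. Both overlapped, and their log2 fold changes were -0.11 ± 0.11 and -0.12 ± 0.12 (SE, adjusted p = 0.583 and 0.585). The scaffold INCENP was at 0.06 and CDCA8 (borealin) at 0.04. A p that misses the threshold does not show that these genes were alike in both groups.

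Most of the 48 genes had vector replicates 1 and 3 under every GC0643 library. A full order of the 6 libraries was not counted. The median member stood at 0.09, 0.15 and 0.23 in GC0643 replicates 1 to 3 (SD 0.069), against -0.17, 0.11 and -0.45 in vector replicates 1 to 3 (SD 0.28), as log2 distance from the mean of the 6 libraries. The same median over all genes tested stayed between -0.02 and 0.04 in every library. These genes spread more among vector libraries than among GC0643 libraries, and so did the other lists of related genes described later, with SDs of their medians of 0.0659, 0.0645 and 0.121 in GC0643 libraries, against 0.176, 0.246 and 0.220 in vector libraries. Vector replicates 1 and 3 were both under every GC0643 library for 35 of the 48 genes and both above for 5. Vector replicate 2 was under every GC0643 library for 17 genes and reached or exceeded the lowest GC0643 library for 31. Vector replicate 3 was the lowest of the 6 libraries for 35 genes, and GC0643 replicate 3 the highest for 22. None of these counts by library was taken over all genes tested, so they do not show a pattern particular to the 48. The chromosomal passenger genes did not have vector replicates 1 and 3 lowest, with medians of -0.14, 0.10 and 0.03 in GC0643 libraries, against 0.07, 0.04 and -0.01 in vector libraries.

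**Figure D3:**
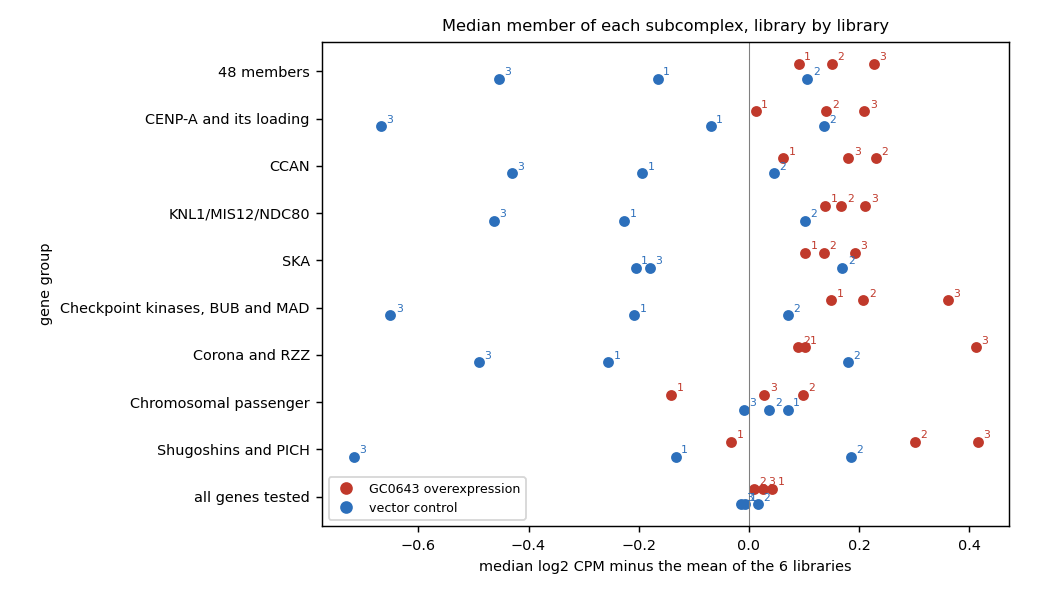
Median log2 CPM of the members of each subcomplex in each library, minus the mean of the 6 libraries. Red marks GC0643 overexpression and blue marks vector control, and the replicate number stands beside each point. For the 48 members the vector libraries lie at -0.17, 0.11 and -0.45, so vector replicate 2 falls among the GC0643 libraries.

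The difference went with base composition. The canonical transcripts of the 48 genes had a median GC content of 41.1%, against 49.4% over the genes tested. Across the 48 genes, the log2 fold change was lower at higher GC content, with a Pearson r of -0.85 and a Spearman rho of -0.78. Across the 19401 genes tested that have a GC value, these were -0.60 and -0.67. Both are descriptions, since genes of the same 6 libraries are not independent. The 16 genes of lowest GC content (32.8% to 39.6%) had a median log2 difference of 0.46 and were all positive, and among all genes in that range the median was 0.36 and 91.6% were positive. The 16 in the middle (39.9% to 43.5%) had a median of 0.37, all positive, against 0.29 and 87.2% among all genes in that range. The 16 of highest GC content (44.1% to 62.3%) had a median of -0.03 with 8 positive, against -0.08 and 39.4%. MAD1L1 (62.3%), CENPM (59.7%) and SPC24 (53.3%), the 3 genes lower in every GC0643 library, and the chromosomal passenger genes (51.2% to 58.8%) belonged to these 16.

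The relation to GC content also held library by library. Across the 48 genes, the distance from the gene's mean had a Pearson r with GC content of -0.79, -0.60 and -0.68 in GC0643 replicates 1 to 3. In vector replicates 1 and 3 it was 0.84 and 0.73, but -0.42 in vector replicate 2, which had the sign of the GC0643 libraries. The 6 distances of a gene add up to 0, so these values depend on each other.

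After a correction for GC content within each library, 36 of the 48 genes had positive log2 fold changes and the median was 0.08. At an unadjusted p under 0.05, 4 members were then higher (NUF2, TTK, CENPE and SGO2), against 2.85% of all genes, and none was lower. NUF2 had a corrected log2 fold change of 0.39, CENPE of 0.35, TTK of 0.34 and SGO2 of 0.28, and none passed an adjusted p under 0.05 or a fold over 1.5. The medians of the checkpoint kinase, BUB and MAD group and of shugoshins and PICH were 0.19 and 0.27, and that of the SKA genes was -0.11. SGO1 was at -0.25. Without vector replicate 2 and with the correction, a setting chosen after seeing the data, 11 members were higher at an unadjusted p under 0.05, against 5.97% of all genes, and none passed the adjusted p. A difference of AT-rich genes between the cells and a difference of base composition between the library preparations cannot be told apart here.

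**Figure D4:**
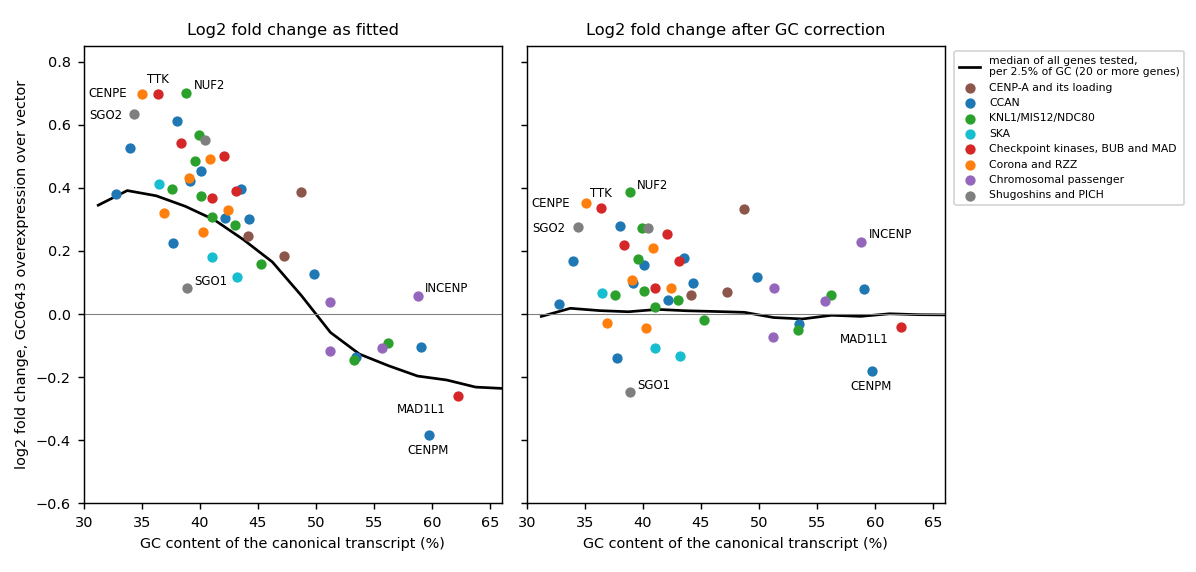
Log2 fold change of GC0643 overexpression over vector control against GC content of the canonical transcript (%), for the 48 genes (points, colored by subcomplex), as fitted on the left and after correction for GC content on the right. The black line is the median of all genes tested in steps of GC content. On the left most members of low GC content lie above 0, with NUF2, TTK and CENPE at 0.70 above the line, and CENPM at -0.38 lies below it. On the right most lie near 0, with NUF2 at 0.39 and SGO1 at -0.25.

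The log2 fold changes were also set beside the promoter motifs. The 22 genes with a CHR had a median log2 fold change of 0.39 (range -0.14 to 0.70) and the 17 without it 0.31 (range -0.26 to 0.70). NUF2, with the CHR TTTGAA 17 bases into the transcript, and CENPE, with neither motif in its promoter, had the same log2 fold change of 0.70. The CDCA8 promoter held a CHR and 3 CCAAT, and its log2 fold change was 0.04. After correction for GC content the medians were 0.17 with and 0.06 without a CHR.

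Other genes of the same processes were counted from lists drawn up beside the 48. Of 35 other centromere and checkpoint genes, 34 were tested, with 22 positive and 12 negative log2 fold changes and a median of 0.23. By unadjusted p (under 0.05), 10 of them were higher and none lower, against 13.1% and 5.26% of all genes tested, which is the background for the next lists too. PPP2R5C, a phosphatase subunit, had a log2 fold change of 0.38 among those higher. Of the 20 genes of the anaphase-promoting complex and its partners, which end the checkpoint, 6 were higher and 1 lower, with a median of 0.27. CDC23 and ANAPC10, subunits of that complex, were at 0.48 and 0.51. Of 22 genes of replication licensing and of the replication fork, PCNA and RFC genes among them, which act before mitosis, 5 were higher and 1 lower. Their median was 0.24. After correction for GC content the medians of the 3 lists were 0.04, 0.12 and 0.04, beside 0.08 for the 48 genes.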

How the data were processed

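The deposited values are raw counts per Ensembl gene. Per the labels, libraries came from an NEBNext Ultra kit. Per the submitters' processing notes, the tools were Trimmomatic 0.32, HISAT2 2.1.0 and featureCounts 2.0.0, and the build was GRCh38. The counting options, strand included, are not given for these libraries in the sources used here. Gene names, positions, transcript length and GC content came from GENCODE 44, and promoters from RefSeq (GRCh38.p14).

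Genes were kept by filterByExpr, scaled by TMM and tested with edgeR 4.0.16 (quasi-likelihood, group only, Benjamini-Hochberg over all genes tested), in R 4.3.3 with limma 3.58.1 and DESeq2 1.42.0 as alternatives. Log2 fold changes are GC0643 overexpression over vector control. The GC correction subtracted a loess curve (span 0.3, prior count 1) of each library's log2 CPM deviations. The study's thresholds, a fold of 1.5 and p under 0.05, were also applied. The code was tested on simulated data.

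The 48 members and the other lists were chosen with earlier results of these data known. Values in every library are given, per subcomplex, for the 2 members of smallest p and the lowest log2 fold change, and for members under 10 CPM, past the thresholds, or among the 3 highest or lowest per kb. No libraries were near-identical. Some items are not reported here.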

Additional observations from a re-analysis of the deposited data

How the results depend on the processing

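Of 912 member values recomputed under 19 alternatives, 839 kept their direction and their side of an adjusted p of 0.05, 36 passed it and none was lost from it, while 37 values of 14 genes changed sign. Only 2 settings brought members past the adjusted p: testing without a filter on low counts (6 members, NUF2, MAD2L1, TTK, CENPE, CENPF and SGO2) and leaving out vector replicate 2 (30). Among all genes, 224 of 36223 passed it without the filter and 3813 of 19988 without vector replicate 2. The likelihood ratio test, DESeq2, limma voom, DESeq2's size factors, library size alone, a filter of CPM over 1 in at least 3 libraries and protein-coding genes only changed no sign of a member. The transcript length correction left 3 members past the fold of 1.5 at p under 0.05, a count not taken over all genes. That correction put CENPP at -0.0496 and INCENP at -0.0339.

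The GC correction left 4 members higher, 0 lower and 0 past the fold by unadjusted p, beside 557 higher and 682 lower among all 19528 genes. Of these 19528 genes, 125 were higher and 177 lower past the fold. The median log2 fold change was then 0.0807 over the 48 genes, 0.0969 in CCAN, 0.061 in KNL1, MIS12 and NDC80, 0.0955 in the corona and RZZ, and, with the sign changed, -0.11 in SKA and 0.0619 in the chromosomal passenger genes. It also changed the sign of 10 genes: CENPT 0.0804, CENPU -0.14, ZWINT -0.0181, PMF1 0.0616, SKA1 -0.13, SKA3 -0.11, ZWILCH -0.0286, KNTC1 -0.0442, AURKB 0.0406 and SGO1 -0.25. Without vector replicate 2 and with the GC correction, a setting chosen after seeing the data, 11 members were higher, against 5.97% of all genes, and 0 past the fold. Of the 19528 genes tested with all libraries, 248 were higher and 357 lower past the fold in this setting. Medians were then 0.12 in CCAN, 0.13 in KNL1, MIS12 and NDC80, -0.069 in SKA and 0.093 in the passenger genes. The genes of changed sign were CENPT 0.12, CENPU -0.21, PMF1 0.10, SKA1 -0.21, SKA3 -0.069, AURKB 0.0693 and SGO1 -0.23. The cause was not tested.

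Deviations of same-numbered libraries from their group means correlated at -0.21, -0.028 and -0.31, and those of differently numbered libraries at -0.17 to 0.31. Deviations within a group add up to 0, so these values cannot exclude a shared culture or day, which the labels do not state. With a replicate block, 21 members were higher, 0 lower, 6 past the fold and 0 past the adjusted p. Beside them, 1945 genes were higher, 314 lower and 24 past the adjusted p among all 19528. Counts past the fold under a block were not taken over all genes. With the block and the GC correction, 3 members were higher, 0 lower and 0 past the fold, beside 357 higher and 377 lower among all 19528 genes. The block medians were then 0.0813 over the 48 genes, 0.10 in CCAN, 0.0589 in KNL1, MIS12 and NDC80, 0.0939 in the corona and RZZ, -0.11 in SKA and 0.0622 in the passenger genes, and the genes of changed sign under this block were CENPT 0.0815, CENPU -0.13, ZWINT -0.0155, PMF1 0.0522, SKA1 -0.13, SKA3 -0.11, ZWILCH -0.0328, KNTC1 -0.0458, AURKB 0.041 and SGO1 -0.25.

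Leaving out each library in turn gave 0 to 30 members past the adjusted p, and by unadjusted p 10 to 33 higher, 0 to 2 lower and 0 to 18 past the fold. Over all genes tested, 0 to 3813 passed the adjusted p, and by unadjusted p 827 to 4564 were higher and 367 to 2842 lower. The highest of these counts came without vector replicate 2. There, 1725 of the 19528 genes tested with all libraries were higher past the fold and 369 lower, beside the 18 members. Without vector replicate 3, 10 members were higher, beside 1531 of 19847 genes. Past the fold were 0 members then, beside 260 genes higher and 114 lower of 19505. Without GC0643 replicate 1, 8 members were past the fold, a count not taken over all genes. Without GC0643 replicates 2 and 3, 12 and 11 members were higher, beside 2045 of 19957 and 1268 of 19947 genes. The median of the 48 genes ranged over 0.19 to 0.52, that of CENP-A and its loading over 0.0542 to 0.56, that of SKA over 0.0688 to 0.34 and that of the passenger genes over -0.0934 to 0.041. Single genes that changed sign ranged over -0.23 to 0.0451 (PMF1), -0.0826 to 0.15 (INCENP), -0.0182 to 0.0869 (CDCA8), -0.0257 to 0.56 (MIS18A), -0.0122 to 0.27 (ZWINT) and -0.0406 to 0.23 (SGO1). There were 3 libraries a group and the biological coefficient of variation was 14.8%. In the quasi-likelihood test with TMM, group only, all libraries and the filter on low counts, no gene passed the adjusted p. The log2 differences of all genes tested ran from -5.37 to 3.69, so 0.70, the highest of the 48, marks no limit of detection.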
